A study of Mus musculus with 27 samples.

Results

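Wild-type mouse embryonic fibroblasts taken 24 h after 10 Gy of gamma radiation were compared with untreated cells of the same line. The comparison used 6 of the 27 arrays of the series, 3 at 24 h and 3 untreated, which were chosen by their titles. Its members were 10549 of the 18193 genes measured, those whose mean log2 intensity over the 6 arrays lay above background. The other arrays drawn on were wild-type cells 4 h after the same dose, and untreated and 24 h cells of a PKBalpha knockout line and of a line that the labels call knockout with PKBalpha rescued (here line R), with 3 arrays in each group. PKBalpha is the protein kinase encoded by Akt1. By its brightest probe set Akt1 read 2981 to 4465 on the 6 wild-type arrays, 2.35 to 52.7 on the untreated and 24 h arrays of the knockout and 7.44 to 41.9 on those of line R. A second probe set read 1654 to 2675, 1.42 to 18.5 and 15.7 to 75.8. The Akt1 transcript thus goes against the rescued label of line R on these probes; whether a rescuing construct carries their target was not tested, and line R is named here by its label alone. Per the labels, all cells were female and at passage 45, grew in medium with 10% serum, and had been cultured for 24 h when they were irradiated. The series' design calls the replicates biological. Each genotype is 1 line, so that replicate error is spread between cultures and not between lines of a genotype. The errors given pool that spread over all 27 arrays in 9 groups, 4 h arrays of the knockout and line R among them. With the untreated and 24 h wild-type arrays fitted alone, no gene had an adjusted p below 0.05 in limma. How long the untreated cells had been in culture is not stated, and time in culture and irradiation cannot be told apart. The descriptions of the irradiated wild-type samples call them untreated, so their groups rest on the titles.

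Gamma radiation breaks DNA, and the kinases ATM and ATR pass the signal to the transcription factor p53. Through p53 targets such as Cdkn1a, a cyclin-dependent kinase inhibitor, cells halt before S phase or mitosis, and through Mdm2, a ubiquitin ligase, p53 limits its own level. Fibroblasts in culture are also known for dividing, for making collagen matrix, and for synthesising sterols and fatty acids under the transcription factors SREBP1 and SREBP2.

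The values are intensities on a linear scale, whose median per array lay between 63.1 and 77.4 on the 6 arrays. Background was the highest reading of any Y-linked probe set (69.9), since female cells lack that chromosome, and 10490 to 10850 genes exceeded it on each of the 6 arrays. Of the members, 10360 had a mean above background in both groups and 189 in 1 group only. The median SD of the log2 value within a group, pooled over the 9 groups of the series, was 0.26 for the members. Among untreated wild-type arrays alone it was 0.26, and among those at 24 h 0.17. Untreated replicate 2 stood apart. It was 1 of 5 arrays of the series, and the only one of the 6, with high 3' to 5' ratios of the control probe sets for Gapdh (-0.187 to 0.16 on the 5 arrays, -0.466 to -0.298 on the other 22, log2) and for actin (0.39 to 0.592 against 0.128 to 0.292). Its log2 values correlated with those of untreated replicates 0 and 1 at r = 0.947 and 0.9428 over the members, and those arrays with each other at 0.9829. A further 1 of the 5 arrays was 4 h replicate 0. Differences from untreated cells, of genes or as list medians, that changed sign or moved by over 1.5 times without untreated replicate 2 are given both ways. All 11 fibroblast markers lay above background, with a summed intensity of 135019 to 145448 in untreated cells and 119653 to 125646 at 24 h. So did 5 of 6 mesothelial markers (27871 to 37575 untreated, 27473 to 31504 at 24 h). Of the markers of other cell types, 3 of 10 epithelial ones, 1 of 8 endothelial, 2 of 8 blood, 2 of 8 neural and 3 of 8 muscle and fat ones lay above background, and the last list read 14359 to 21718 untreated and 21890 to 24157 at 24 h, mostly Lpl. What part cells of other types had in the results was not tested.

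At 24 h, 5 genes differed from untreated cells at an adjusted p below 0.05 in limma, 0.0474% of the members. Zfp367 and Macir were higher (0.019%), and Elovl6, Ebf3 and Cgas were lower (0.0284%). The middle 90% of the members differed by -0.52 to 0.58 on the log2 scale, with a median of -0.009. An unadjusted p below 0.05 was reached by 1167 members (11.1%), of which 545 were on the higher side (5.17%) and 622 on the lower (5.9%). All 3 arrays at 24 h lay above all 3 untreated arrays for 847 members (8.03%) and below them for 1162 (11%). Without untreated replicate 2 these counts were 1262 (12%) and 1596 (15.1%), where fewer arrays had to be passed. A difference of 1 or more on the log2 scale was found for 97 members (0.92%). In the plot of differences by level, some genes that did not pass, Cdkn1a and Fos among them, have larger differences than the called genes.

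**Figure D1:**
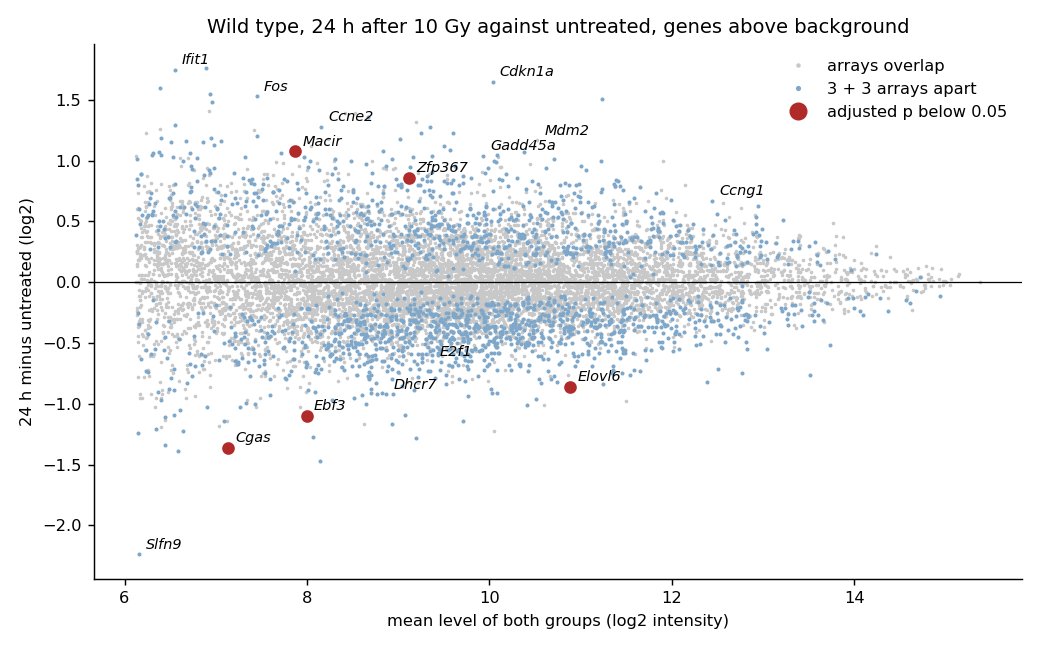
Difference between 24 h and untreated wild-type cells (log2, y axis) by the mean level of both groups (log2 intensity, x axis) for the 10549 genes above background. Red points are the 5 genes with an adjusted p below 0.05, blue points are genes whose 3 + 3 arrays do not overlap, and grey points the rest; the spread widens towards low levels.

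Elovl6 encodes the elongase that lengthens palmitate to stearate. It read 2464, 2377 and 2812 on the untreated arrays and 1340, 1245 and 1660 at 24 h. Every array at 24 h was below every untreated one, and Elovl6 fell by 0.86 ± 0.13 on the log2 scale (0.552-fold, SE of the model, n = 3 per group, adjusted p = 0.011). A second probe set above background gave -1.02 (adjusted p over probe sets 0.11). At 4 h the gene read 1438, 1481 and 1575, already lower than in untreated cells (-0.77 ± 0.13, adjusted p = 0.0042), and 24 h did not differ from 4 h beyond the error (-0.09 ± 0.13, adjusted p = 0.82).

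Ebf3, a transcription factor of the early B cell factor family that is also made in mesenchymal cells, read 388, 341 and 398 untreated and 194, 196 and 139 at 24 h. The groups were apart, and Ebf3 fell by 1.10 ± 0.16 (0.465-fold, adjusted p = 0.011). Its other probe sets above background gave -0.72 (adjusted p over probe sets 0.45) and -0.21 (0.90), so the size of the difference depends on the probe set. The 4 h arrays were close together at 159, 162 and 157 (-1.24 ± 0.16 against untreated, adjusted p = 0.0014; 24 h against 4 h 0.13 ± 0.16, adjusted p = 0.80).

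Cgas encodes the enzyme that detects DNA in the cytosol and makes the messenger cGAMP. It read 191, 165 and 361 untreated and 102, 75.2 and 88.1 at 24 h, down to just above background. The groups were apart, and the difference was -1.36 ± 0.24 (0.390-fold, adjusted p = 0.031). Untreated replicate 2 had the highest reading. Without that array the difference was -1.02 and did not pass (adjusted p = 0.088), and neither did it without 24 h replicate 1 (0.17) or 2 (0.09). Unlike the genes above, Cgas was still high at 4 h (282, 357 and 242), where it did not pass against untreated cells (0.36 ± 0.24, adjusted p = 0.48). From 4 h to 24 h it fell by 1.72 ± 0.24 (adjusted p = 0.0011, at most 0.011 when any 1 of those 6 arrays was left out). That comparison uses no untreated array.

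Zfp367, a zinc finger protein, read 410, 423 and 405 untreated and 792, 795 and 659 at 24 h. Here the untreated arrays were nearly equal and every array at 24 h was higher (0.86 ± 0.14, 1.81-fold, adjusted p = 0.017). It had reached 783, 691 and 820 by 4 h (0.89 ± 0.14 against untreated, adjusted p = 0.0025).

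Macir, which encodes a regulator of macrophage function, read 162, 164 and 157 untreated and 319, 352 and 350 at 24 h. The groups were apart and tight (1.08 ± 0.17, 2.11-fold, adjusted p = 0.014). A second probe set gave 0.40 (adjusted p over probe sets 0.59). At 4 h Macir read 342, 249 and 420 (1.03 ± 0.17, adjusted p = 0.0036). So 4 of the 5 genes also passed at 4 h against untreated cells, in the same direction as at 24 h, where 533 members (5.05%) passed, 244 of them higher (2.31%) and 289 lower (2.74%). For Cgas the lower level was seen at 24 h. The comparisons with untreated cells at 4 h and 24 h share the untreated arrays. When 1 of the 6 arrays was left out, Elovl6 and Ebf3 passed in 5 of 6 fits, Macir and Zfp367 in 4 and Cgas in 3. Without 24 h replicate 1, Ebf3 alone of the members passed.

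**Figure D2:**
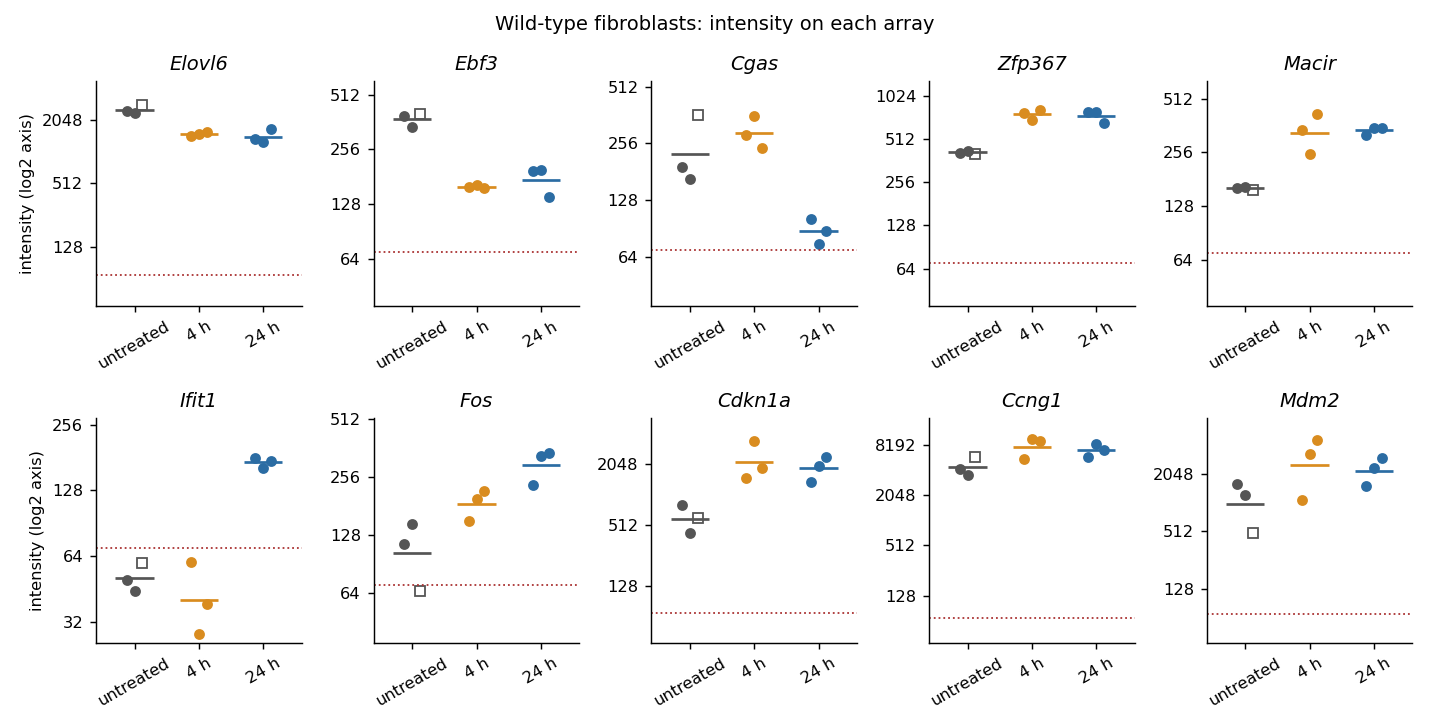
Intensity (log2 axis) on each wild-type array, untreated, 4 h and 24 h after 10 Gy, for the 5 called genes and 5 others; bars are geometric means of 3 arrays, the open square is untreated replicate 2 and the dotted line is the background of 69.9. Elovl6, Ebf3, Zfp367 and Macir sit at 4 h near their 24 h level, whereas Cgas and Ifit1 differ between 4 h and 24 h.

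The promoters of Zfp367, Cgas, Ifit1 and Lss are shown because each holds a searched motif in the 250 bases before the start site. Cgas, Ifit1 and Lss are members of gene lists described here, and Zfp367 is a called gene outside the lists. RefSeq promoter sequences (GRCm38.p6) were searched on both strands for an E2F-type motif (TTTCCCGC, TTTGGCGC, TTTCGCGC or TTTGCCGC), the interferon-stimulated response element (GAAA, any 2 bases, GAAA), a sterol regulatory element (TCACNCCAC), the cyclic AMP response element (TGACGTCA) and the CCAAT box (CCAAT). Of 27025 promoters, 1.91%, 3.04%, 1.04%, 1.62% and 34.5% held them in that order. Among the 8609 members with a promoter the shares were 3.76%, 2.44%, 0.929%, 2.79% and 36.9%. Capitals mark the E2F-type match in Zfp367 and Cgas, both response element matches in Ifit1 and the CCAAT box, in reverse, in Lss.
Zfp367: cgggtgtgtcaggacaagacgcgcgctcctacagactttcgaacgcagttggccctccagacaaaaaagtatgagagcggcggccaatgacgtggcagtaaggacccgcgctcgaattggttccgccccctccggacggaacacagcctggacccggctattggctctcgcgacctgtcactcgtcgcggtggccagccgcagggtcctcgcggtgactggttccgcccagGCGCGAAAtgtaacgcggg
Cgas: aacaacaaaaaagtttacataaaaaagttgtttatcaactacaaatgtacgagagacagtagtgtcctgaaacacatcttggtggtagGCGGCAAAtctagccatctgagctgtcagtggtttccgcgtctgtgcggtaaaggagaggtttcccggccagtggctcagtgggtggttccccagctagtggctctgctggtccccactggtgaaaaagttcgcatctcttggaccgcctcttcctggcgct
Ifit1: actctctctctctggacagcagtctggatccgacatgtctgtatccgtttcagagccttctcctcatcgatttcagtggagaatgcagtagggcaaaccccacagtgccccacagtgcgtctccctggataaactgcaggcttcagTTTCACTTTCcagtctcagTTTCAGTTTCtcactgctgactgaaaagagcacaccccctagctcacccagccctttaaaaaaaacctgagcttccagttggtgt
Lss: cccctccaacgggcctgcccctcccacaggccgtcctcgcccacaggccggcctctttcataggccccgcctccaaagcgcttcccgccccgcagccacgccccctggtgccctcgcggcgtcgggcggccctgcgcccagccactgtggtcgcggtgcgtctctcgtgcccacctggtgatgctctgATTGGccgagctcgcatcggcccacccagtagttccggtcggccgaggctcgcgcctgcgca
Zfp367 (chr13:64153200-64153449, minus strand, 1 of 2 promoters listed) has its E2F-type match starting 19 bases before the start site, and Cgas (chr9:78443238-78443487, minus strand) 162 bases before it. Ifit1 (chr19:34640639-34640888, plus strand) has matches 104 and 85 bases before the start, and Lss (chr10:76531355-76531604, plus strand) 62 bases before it. The E2F-type variants were counted as 1 motif, and the CCAAT box is in capitals in Lss only. None of the other 4 motifs was found in the Lss window, or in those of Elovl6, Ebf3 and Macir. A match is a stretch of letters and not a shown binding site.

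The p53 targets of arrest and feedback had the highest median of the gene lists with at least 5 members above background. Of 14 members above background, 12 were on the higher side at 24 h, with a median of 0.40 against -0.009 for all members, and in 5 the 3 + 3 arrays were apart, all higher (8.03% of all members were). No member passed the threshold. Cdkn1a read 813, 427 and 599 untreated and 1363, 1963 and 2394 at 24 h. The arrays were apart and the difference was large (1.65 ± 0.39), but the adjusted p was 0.15. Its other probe set gave 1.34. The 4 h arrays spread from 1492 to 3452 (1.85 ± 0.39, adjusted p = 0.015). Ccng1, cyclin G1, read 4220, 3510 and 5765 untreated and 5851, 8338 and 6987 at 24 h (0.67 ± 0.22, adjusted p = 0.38; 0.036 without the 5 arrays that stood apart). Its lowest array at 24 h was barely above the highest untreated one, which was replicate 2. Mdm2 read 1584, 1217 and 492 untreated and 1519, 2364 and 3010 at 24 h (1.17 ± 0.53, adjusted p = 0.50). Those groups overlapped, and without untreated replicate 2, the lowest array, the difference was 0.67. A second Mdm2 probe set above background gave 0.65 with all arrays.

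Gadd45a, a stress protein that binds PCNA and Cdk1, was the 1 of these 14 genes that differed between 4 h and 24 h. Of all members, 4.13% differed there and 1.68% were higher, so a count of 1 is no trait of the list. It read 1012, 709 and 434 untreated, 517, 513 and 723 at 4 h and 1203, 1514 and 1492 at 24 h. It rose from 4 h to 24 h by 1.27 ± 0.26 (adjusted p = 0.015; up to 0.072 with 1 array left out), while the difference from untreated cells was 1.04 ± 0.26 (adjusted p = 0.21). Trp53inp1, a p53 co-activator in death signalling, read 957, 944 and 916 untreated and 1735, 1916 and 1492 at 24 h (0.86 ± 0.41, adjusted p = 0.52). The arrays were apart, and the error of the model, which pools all 9 groups, was wide. Plk2, a polo-like kinase, read 1520, 1381 and 1250 against 1544, 2323 and 2234 (0.54 ± 0.19, adjusted p = 0.39).

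Of 18 p53 targets of death, repair and metabolism, 17 were on the higher side (median 0.23), 5 had arrays apart, all higher (8.03% of all members were), and none passed. Pidd1, of the PIDDosome, read 110, 72.8 and 86.4 untreated and 149, 202 and 156 at 24 h (0.92 ± 0.28, adjusted p = 0.32). Rrm2b, the p53-controlled ribonucleotide reductase subunit, read 364, 308 and 311 against 440, 428 and 446 (0.42 ± 0.13, adjusted p = 0.32). Both had separate groups. Against 4 h, 3 members were lower at 24 h, as were 2.46% of all members. Aen, an apoptosis-linked nuclease, fell by 1.10 ± 0.25 (adjusted p = 0.027), from a mean of 1435 at 4 h to 670, beside 644 in untreated cells. Ei24 fell by 0.82 ± 0.18 (adjusted p = 0.021) and Polh, a translesion polymerase, fell by 0.59 ± 0.12 (0.015). Each of these 3 lost the call when some 1 array was left out (highest adjusted p 0.089, 0.078 and 0.085).

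The S phase genes lay near their untreated level at 24 h. The median of 31 E2F and S phase genes was 0.01 (-0.0 without untreated replicate 2), 16 were on the higher side and 15 on the lower, and none passed. Their mean was 0.03, 0.05 and 0.05 above the untreated mean on the arrays at 24 h and 0.61, 0.66 and 0.61 at 4 h. Within that, the members did not move alike. Ccne2, cyclin E2, read 232, 222 and 119 untreated and 463, 648 and 291 at 24 h (1.28 ± 0.43, adjusted p = 0.38; 0.97 without untreated replicate 2), with the groups apart. E2f1, a transcription factor that drives S phase genes, read 891, 867 and 741 untreated and 431, 555 and 617 at 24 h (-0.65 ± 0.14, adjusted p = 0.11), also apart. With its 3 probe sets averaged, E2f1 differed by -0.23. Tk1, thymidine kinase, read 2997, 3035 and 2952 against 2489, 1912 and 2290 (-0.43 ± 0.21, adjusted p = 0.53).

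From 4 h to 24 h, 436 members changed (4.13%), 177 higher (1.68%) and 259 lower (2.46%). With array medians made equal, which shifted the median of the members by -0.1, 363 passed, 71 higher and 292 lower. The count also depended on single arrays. It was 112 without 4 h replicate 0, 139 without 4 h replicate 1, 266, 92 and 173 without 24 h replicate 0, 1 and 2, and 62 of the 436 passed in all 6 such fits. Of the 31 S phase genes, 13 fell and none rose, and 5 of the 13 passed in all 6 fits. E2f8, a repressor of the E2F family, read 183, 157 and 322 untreated, 579, 564 and 485 at 4 h and 178, 191 and 187 at 24 h. From 4 h to 24 h it fell by 1.55 ± 0.19 (adjusted p = 0.00054), and its groups at 24 h and untreated overlapped. Mcm10, which starts replication forks, fell by 0.99 ± 0.15 (adjusted p = 0.0018), Rrm2, of ribonucleotide reductase, fell by 0.91 ± 0.16 (0.0071), and Uhrf1, which maintains DNA methylation, fell by 0.83 ± 0.14 (0.0052).

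Among 34 genes of mitosis the median at 24 h was -0.16, with 23 on the lower side. In 6 the arrays were apart, all lower (11% of all members were), and none passed. Their mean was 0.03, -0.21 and -0.12 on the arrays at 24 h and 0.54, 0.54 and 0.34 at 4 h, relative to untreated. From 4 h to 24 h 11 fell (2.46% of all members did) and none rose, and 4 of the 11 passed in all 6 fits. Top2a, topoisomerase II alpha, read 5576, 5474 and 7045 untreated, 10963, 9005 and 8674 at 4 h and 5718, 4643 and 4810 at 24 h (-0.92 ± 0.13 from 4 h, adjusted p = 0.0015). The Ttk gene, for the spindle checkpoint kinase MPS1, read 928, 890 and 1090, then 1451, 1337 and 1387, then 873, 701 and 723 (-0.87 ± 0.12 from 4 h, adjusted p = 0.0011). Both had a 24 h level whose difference from untreated cells missed the threshold (-0.25 and -0.34, adjusted p = 0.55 and 0.39; -0.13 for Top2a without untreated replicate 2).

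**Figure D3:**
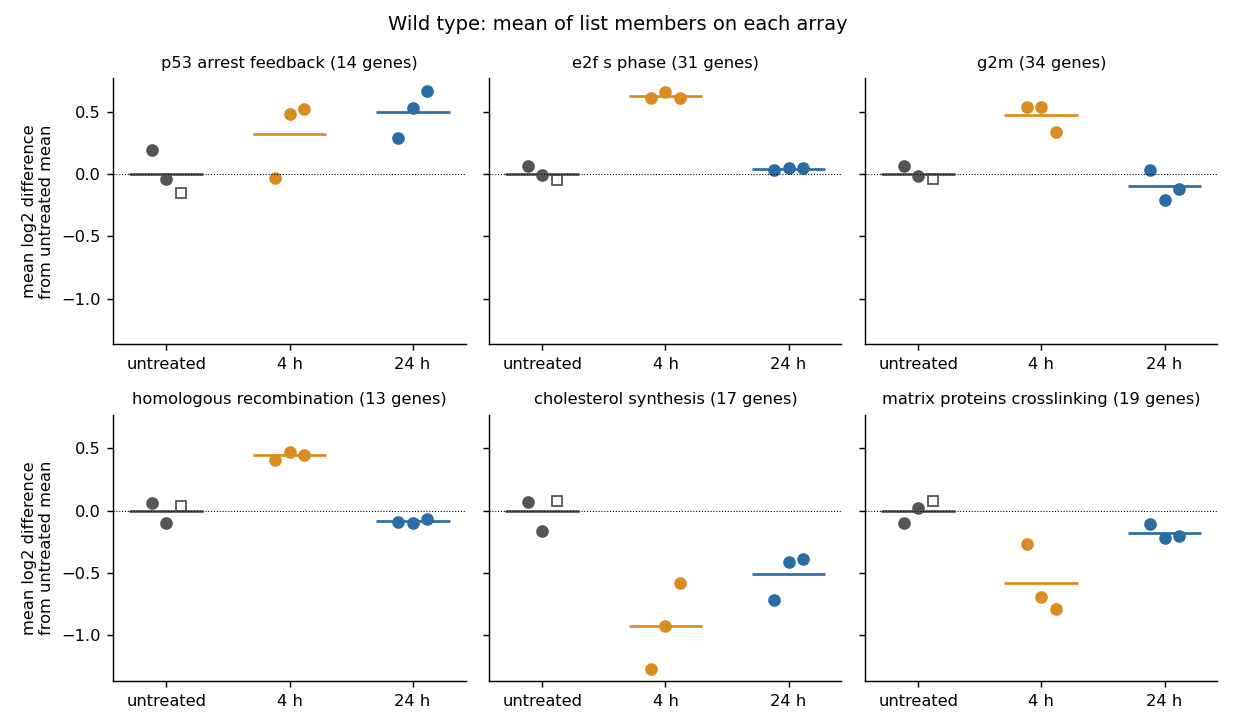
Mean log2 difference from the untreated mean over the members of 6 gene lists, on each wild-type array; bars are means of 3 arrays and the open square is untreated replicate 2. S phase, mitosis and homologous recombination genes are high at 4 h and near 0 at 24 h, and the cholesterol synthesis genes are at -0.72, -0.41 and -0.39 at 24 h.

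In homologous recombination, the median of 13 members at 24 h was -0.14 against untreated (-0.06 without untreated replicate 2), with none past the threshold, and their mean on the arrays was -0.09, -0.10 and -0.07 at 24 h beside 0.41, 0.47 and 0.45 at 4 h. From 4 h to 24 h 7 fell (2.46% of all members did), and 5 of the 7 passed in all 6 fits. Only 1 (Rad51b) rose (1.68% of all members did). Brca1 fell by 0.84 ± 0.11 (adjusted p = 0.00054), from a mean of 1394 to 780, beside 748 untreated. Exo1, the exonuclease that resects breaks, fell by 1.10 ± 0.15 (0.0014), Rad51ap1 fell by 0.89 ± 0.13 (0.0015) and Blm, a RecQ helicase, fell by 0.94 ± 0.16 (0.0058). Blm read 380, 300 and 515 untreated and 267, 273 and 290 at 24 h, which were apart (-0.49 ± 0.16, adjusted p = 0.37; -0.29 without untreated replicate 2). Brca2 was apart as well (646, 611 and 1037 against 523, 482 and 406, -0.67 ± 0.23, adjusted p = 0.39), its highest array being untreated replicate 2, without which the difference was -0.43. The genes of break sensing and end joining had a median of -0.04 (18 members; -0.06 without untreated replicate 2). There, Atr, the kinase that senses single-stranded DNA, read 403, 445 and 565 untreated and 305, 377 and 364 at 24 h (-0.43 ± 0.14, adjusted p = 0.38). From 4 h it fell by 0.73 ± 0.14 (adjusted p = 0.01), and Rad50 (-0.81 ± 0.18, 0.024) and Rnf168 (-0.55 ± 0.12, 0.023) fell with it. Each of these 3 lost the call in some fit without 1 array.

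Cholesterol synthesis was, of the lists with at least 5 members above background, the only one in which all members shared a sign as deposited; with array medians made equal 16 of its 17 members did, and all 15 of the ATF4 list were on the higher side. All 17 enzymes above background were on the lower side at 24 h, where 51.0% of all members were, with a median of -0.41 (-0.44 without untreated replicate 2). In 11 the arrays were apart, all lower, against 11% of all members, and 10 were lower at an unadjusted p below 0.05, against 5.9%. None passed after adjustment. Dhcr7, the last reductase of the pathway, came nearest, at 704, 544 and 690 untreated and 277, 312 and 449 at 24 h (-0.92 ± 0.18, adjusted p = 0.062). Lss, lanosterol synthase, read 2378, 1901 and 2584 untreated and 929, 1397 and 1619 at 24 h (-0.82 ± 0.22, adjusted p = 0.24). For the mevalonate enzymes, Mvk read 780, 707 and 1071 against 424, 571 and 539 (-0.73 ± 0.19, adjusted p = 0.24), and Mvd read 668, 504 and 916 against 256, 401 and 442 (-0.92 ± 0.28, adjusted p = 0.33; -0.70 without untreated replicate 2). Sqle, squalene epoxidase, had the tightest untreated arrays at 6122, 5968 and 5983, against 4501, 4405 and 5216 (-0.36 ± 0.12, adjusted p = 0.38). In these genes the groups did not overlap.

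The cholesterol genes were lower still at 4 h, with a median of -0.89. There, 11 members passed the threshold, all lower (2.74% of all members were), and none passed between 4 h and 24 h (median 0.41). Lss read 869, 1059 and 1198 at 4 h, and Dhcr7 310, 250 and 373. Of 14 members with a promoter in the table, 13 held a CCAAT box in the 250 bases searched, as does the Lss promoter printed above, against 36.9% of the 8609 members with a promoter, and 1 (Hmgcs1) held the sterol element. In the S phase list 17 of 26 promoters held a CCAAT box and 6 an E2F-type motif, which 3.76% of the members held. These are shares of letters and were not tested.

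Of 10 genes of sterol sensing and transport, 7 were on the lower side (median -0.37, -0.26 without untreated replicate 2). Stard4, a sterol transporter, read 2179, 1937 and 3559 untreated and 1544, 1733 and 1594 at 24 h (-0.61 ± 0.19, adjusted p = 0.35; -0.34 without untreated replicate 2). Abca1, the cholesterol exporter and a target of LXR, was on the other side, at 612, 785 and 535 against 961, 1026 and 913 (0.60 ± 0.34, adjusted p = 0.57). The arrays of both were apart.

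Fatty acid synthesis and desaturation had a median of -0.31 over 15 members, 12 on the lower side and 6 with arrays apart, all lower (11% of all members were), of which Elovl6 passed. Fads2, the delta-6 desaturase, read 6395, 5257 and 6628 untreated and 3778, 4946 and 4752 at 24 h (-0.44 ± 0.16, adjusted p = 0.39). Fasn, fatty acid synthase, read 3164, 2736 and 6730 against 2094, 2353 and 2422 (-0.76 ± 0.29, adjusted p = 0.43). Acaca, acetyl-CoA carboxylase, read 789, 706 and 1566 against 480, 557 and 668 (-0.76 ± 0.30, adjusted p = 0.44). For both, untreated replicate 2 was by far the highest array, and without it the differences were -0.36 and -0.41. With its 2 probe sets averaged, Acaca differed by -0.07. Scd1, stearoyl-CoA desaturase, read 4736, 4247 and 3787 untreated, 2165, 2445 and 2311 at 4 h and 3338, 3596 and 3530 at 24 h. It rose from 4 h by 0.60 ± 0.14 (adjusted p = 0.029, up to 0.12 with 1 array left out), to a level still below every untreated array (-0.28 ± 0.14, adjusted p = 0.54).

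**Figure D4:**
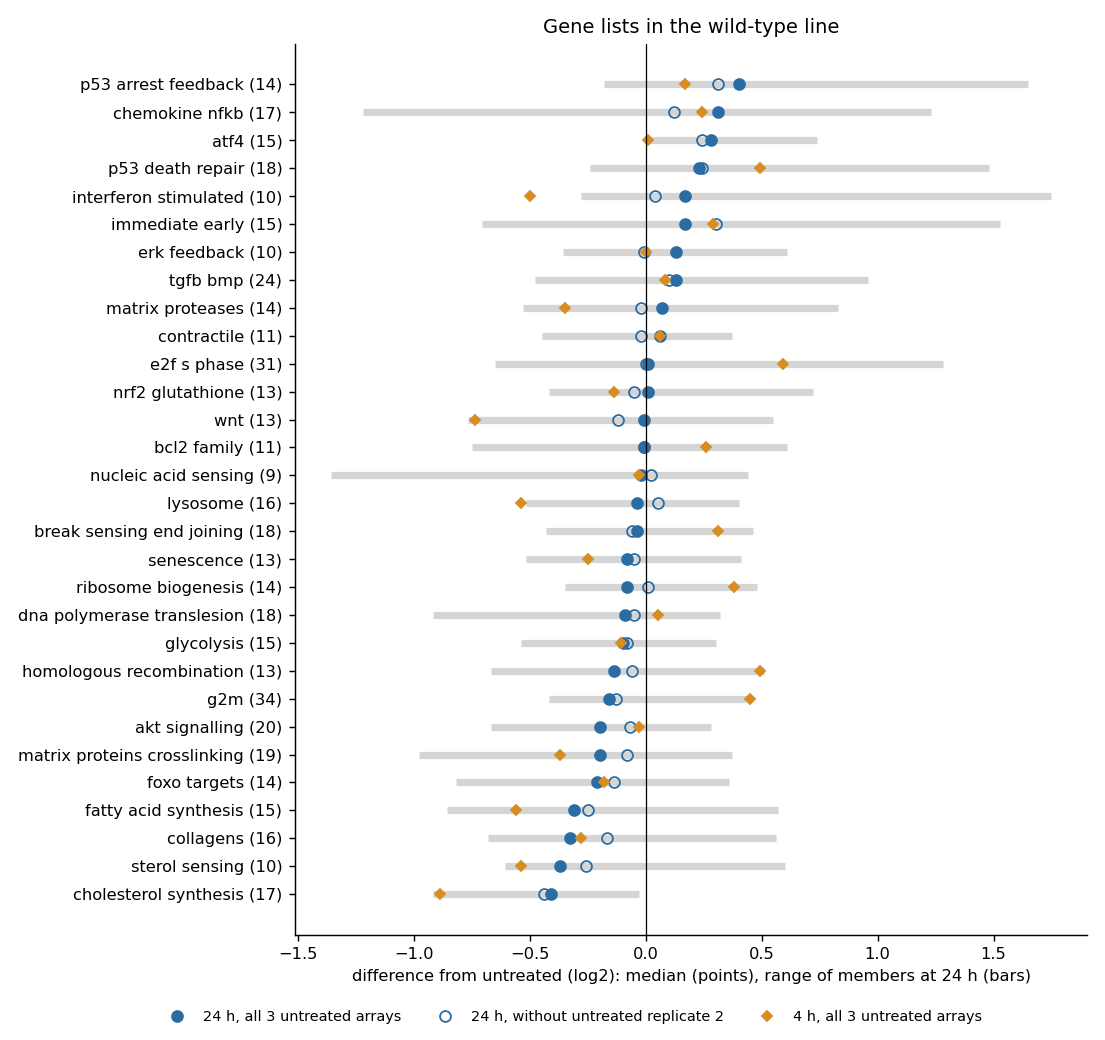
Median difference from untreated cells (log2) for gene lists with at least 5 members above background (number in brackets), at 24 h with all 3 untreated arrays (filled circles), at 24 h without untreated replicate 2 (open circles) and at 4 h (diamonds); grey bars span the members at 24 h. Cholesterol synthesis (-0.41) has the lowest and p53 arrest and feedback (0.40) the highest median at 24 h.

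Collagen genes were on the lower side in 11 of 16, with a median of -0.33 that was -0.17 without untreated replicate 2. Col1a1, of type I collagen, read 14519, 15633 and 18977 untreated and 13073, 9929 and 11348 at 24 h (-0.52 ± 0.26, adjusted p = 0.54). Col6a3 read 1523, 1318 and 2695 against 1025, 999 and 1275 (-0.68 ± 0.22, adjusted p = 0.37; -0.37 without untreated replicate 2). Both had groups apart, and in both the highest array was untreated replicate 2. Of 19 other matrix genes, 13 were on the lower side (median -0.20, -0.08 without untreated replicate 2) and none passed. Postn, periostin, read 5071, 2353 and 5619 against 1615, 2384 and 2288 (-0.98 ± 0.27, adjusted p = 0.29), with overlap.

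Against 4 h, 3 of these 19 matrix genes and 1 of 14 protease and inhibitor genes rose by 24 h, as did 1.68% of all members. Tgfbi, the TGF-beta-inducible matrix gene, read 1494, 2238 and 2237 untreated, 1025, 557 and 746 at 4 h and 1911, 1396 and 1664 at 24 h. It rose from 4 h by 1.13 ± 0.20 (adjusted p = 0.0071, at most 0.036 with 1 array left out). Thbs2, a thrombospondin, rose by 1.10 ± 0.22 (adjusted p = 0.014), Dcn, decorin, by 1.12 ± 0.27 (0.033) and the stromelysin gene Mmp3 by 1.45 ± 0.31 (0.017), and these 3 lost the call in some fit without 1 array. Mmp3 read 3553, 1533 and 2551 at 4 h and 10302, 5266 and 5206 at 24 h, beside 6709 to 10888 untreated. Over 14 proteases and inhibitors the median against untreated was 0.07 (-0.02 without untreated replicate 2). Adamts1 read 1077, 1682 and 661 untreated and 2315, 1693 and 1719 at 24 h (0.83 ± 0.29, adjusted p = 0.39), and Plat, the tissue plasminogen activator gene, 2528, 2655 and 1220 against 3276, 3750 and 3439 (0.79 ± 0.29, adjusted p = 0.42). In both genes untreated replicate 2 was the lowest array, and without it the differences were 0.49 and 0.43. With its 2 probe sets averaged, Plat differed by 0.05.

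Immediate early genes encode transcription factors that respond to growth factors and stress without new protein. Of 15 above background, 13 were on the higher side at 24 h (median 0.17, 0.30 without untreated replicate 2), 6 had arrays apart higher and 1 lower (8.03% and 11% of all members), and none passed. Fos came closest. It read 115, 145 and 65.4 untreated, 150, 196 and 216 at 4 h and 232, 330 and 342 at 24 h, apart and higher (1.53 ± 0.28, adjusted p = 0.052). The lowest reading was untreated replicate 2, below background, and without it the difference was 1.20 (adjusted p = 0.17). Nr4a1, an orphan nuclear receptor, read 179, 130 and 131 against 293, 342 and 281 (1.06 ± 0.25, adjusted p = 0.15), and Klf4 1107, 685 and 814 against 1230, 2067 and 1560 (0.89 ± 0.24, adjusted p = 0.26). Jund was 1 of 2 on the lower side, at 6387, 6150 and 10376 against 3553, 4533 and 5779 (-0.71 ± 0.36, adjusted p = 0.54; -0.47 without untreated replicate 2). Among 10 feedback inhibitors of ERK, the kinase that relays growth factor signals, the median was 0.13, and -0.01 without untreated replicate 2. Dusp1, a phosphatase of that group, read 3651, 3244 and 2042 untreated and 4072, 4458 and 4718 at 24 h (0.61 ± 0.25, adjusted p = 0.46; 0.36 without that array).

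The ATF4 list of amino acid stress genes was on the higher side in 14 of 15 members (median 0.28), with arrays apart in 3, all higher (8.03% of all members were), and none past the threshold. Asns, asparagine synthetase, read 5205, 4118 and 4107 untreated and 5574, 6302 and 6277 at 24 h (0.44 ± 0.15, adjusted p = 0.38). Against 4 h, 2 members rose, as did 1.68% of all members. Trib3, a pseudokinase, read 954, 654 and 594 untreated, 613, 373 and 512 at 4 h and 927, 1476 and 1266 at 24 h (1.30 ± 0.26 from 4 h, adjusted p = 0.012). Ddit3, the stress factor CHOP, rose by 1.02 ± 0.21 (adjusted p = 0.013). With 1 array left out the adjusted p reached 0.070 and 0.073.

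Of the interferon-stimulated genes, Ifit1 had the largest difference at 24 h. Of 10 above background, 8 were on the higher side with a median of 0.17 (0.04 without untreated replicate 2). In 1, Ifit1, the arrays were apart, near the 8.03% of all members that were apart and higher. Ifit1, whose product binds the ends of viral RNA, read 50, 44.5 and 59.8 untreated, 60, 28.1 and 38.6 at 4 h and 179, 162 and 175 at 24 h. Only the 24 h arrays were above background, so the level was at least 2.46-fold higher than in either other group. It rose from 4 h (2.10 ± 0.34, adjusted p = 0.0043, at most 0.024 with 1 array left out) and missed the threshold against untreated cells (1.75 ± 0.34, adjusted p = 0.057). Of 10 promoters of this list in the table, 6 held the response element that is shown in capitals in Ifit1, against 2.44% of the members. Of 9 sensors of nucleic acids and their adaptors, Cgas alone passed in either comparison. Of all members, 0.0474% passed against untreated cells and 4.13% against 4 h. Slfn9, of the Schlafen family, read 128, 118 and 244 untreated, 152, 172 and 86.2 at 4 h and 85.1, 11.3 and 36.5 at 24 h. Its mean at 24 h lay below background, and its untreated mean was 2.21 times the background. Slfn9 differed from untreated by -2.24 ± 0.47 (adjusted p = 0.086), and by -1.20 with its 2 probe sets averaged. From 4 h it fell by 2.0 ± 0.47 (adjusted p = 0.028).

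Among 17 chemokines, cytokines and NF-kappaB targets, 12 were on the higher side (median 0.31, 0.12 without untreated replicate 2) and 5 had arrays apart, all higher (8.03% of all members were). Cxcl10, a chemokine for T cells, read 125, 103 and 118 untreated and 292, 248 and 257 at 24 h (1.20 ± 0.65, adjusted p = 0.56). Ptgs2, cyclooxygenase 2, read 1770, 1997 and 1801 against 3207, 3009 and 3086 (0.74 ± 0.43, adjusted p = 0.59). In both, the wild-type arrays were tight and apart, and the error of the model, pooled over 9 groups, was wide. Ccl20 read 526, 443 and 270 against 622, 1162 and 1130 (1.23 ± 0.57, adjusted p = 0.51). Lcn2 went the other way with wide overlap, from 608 to 3072 untreated and from 329 to 2082 at 24 h (-1.22 ± 0.64, adjusted p = 0.55; -0.76 without untreated replicate 2).

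Senescence genes had a median of -0.08 over 13 members (-0.05 without untreated replicate 2). Cdkn2b, the cyclin-dependent kinase inhibitor p15, read 2464, 2605 and 1902 untreated, 1406, 1294 and 1913 at 4 h and 2609, 2759 and 2645 at 24 h. It rose from 4 h (0.82 ± 0.16, adjusted p = 0.0099, up to 0.059 with 1 array left out) and lay just above all untreated arrays at 24 h (0.21 ± 0.16, adjusted p = 0.67; 0.08 without untreated replicate 2). Lmnb1, lamin B1 of the nuclear envelope, read 1722, 1341 and 2137 against 1133, 1303 and 1131 (-0.52 ± 0.32, adjusted p = 0.61). Of 11 genes of the BCL2 family the median was -0.01. Bid, which links death receptors to mitochondria, read 550, 626 and 371 untreated and 711, 756 and 848 at 24 h (0.61 ± 0.19, adjusted p = 0.35), and Mcl1, a survival protein, 3472, 3668 and 2244 against 4883, 4905 and 3933 (0.57 ± 0.24, adjusted p = 0.46). Without untreated replicate 2 these differences were 0.39 and 0.35.

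Akt1 itself read 3308, 2986 and 4465 untreated and 2981, 3011 and 3114 at 24 h, with overlap (-0.22 ± 0.87, adjusted p = 0.96; -0.05 without untreated replicate 2). Its sign was reversed with the mean of all its probe sets (0.12). The error of the model for Akt1, pooled over 9 groups, was wide. It draws on arrays of the knockout and line R, where the brightest probe set read below background untreated and at 24 h. Akt2, for PKBbeta, read 878, 825 and 891 against 705, 733 and 784 (-0.22 ± 0.14, adjusted p = 0.61). Of 20 genes of Akt signalling, 17 were on the lower side (median -0.20, -0.07 without untreated replicate 2), 3 had arrays apart, all lower, near the 11% of all members, and none passed. Gsk3b, a kinase that Akt inhibits, read 2131, 1850 and 2680 against 1262, 1424 and 1472 (-0.67 ± 0.33, adjusted p = 0.54). The FOXO list had a median of -0.21 over 14 members (-0.14 without that array). Foxo3 overlapped between groups, at 701, 817 and 1857 against 494, 505 and 774 (-0.82 ± 0.37, adjusted p = 0.50; -0.39 without that array).

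Other lists held single genes with separate arrays. Fzd2, a Wnt receptor, read 3622, 3198 and 3708 untreated and 2402, 1986 and 2683 at 24 h (-0.58 ± 0.14, adjusted p = 0.18), in a Wnt list with a median of -0.01 (-0.12 without untreated replicate 2). Nkd1, a Wnt antagonist in the same list, rose from 4 h (80.3, 84.3 and 101) to 24 h (203, 298 and 260) by 1.51 ± 0.31 (adjusted p = 0.015; up to 0.076 with 1 array left out). Id2, an inhibitor of differentiation factors, read 1585, 1919 and 1043 against 3277, 3701 and 1933 (0.96 ± 0.37, adjusted p = 0.43), in a TGF-beta and BMP list with a median of 0.13. Slc7a11, the cystine transporter, read 122, 103 and 96.9 against 131, 213 and 198 (0.72 ± 0.28, adjusted p = 0.43), in an NRF2 list with a median of 0.01 (-0.05 without untreated replicate 2). H1f2, a linker histone, read 1648, 1762 and 1140 against 2548, 2168 and 2046 (0.59 ± 0.18, adjusted p = 0.32). The nucleolar gene Fbl, fibrillarin, read 6770, 5937 and 7340 against 5021, 5366 and 5292 (-0.35 ± 0.12, adjusted p = 0.39) and from 4 h it fell by 0.66 ± 0.12 (adjusted p = 0.0082, at most 0.041 with 1 array left out). Lists of glycolysis (median -0.10), lysosome (-0.04), contractile (0.06) and excision and translesion repair genes (-0.09) had no member past the threshold at 24 h, and without untreated replicate 2 the medians of the last 3 lists were 0.05, -0.02 and -0.05. Thy1, the fibroblast surface marker, read 3504, 2438 and 4397 untreated and 1953, 1933 and 2223 at 24 h (-0.72 ± 0.24, adjusted p = 0.38), and 10 of the 11 fibroblast markers were on the lower side.

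Some genes outside the lists, from those with separate arrays and a large difference, are given next, and not in order of size. Serpinb9b, of the serpin family of protease inhibitors, read 368, 374 and 222 untreated and 586, 627 and 781 at 24 h (1.08 ± 0.25, adjusted p = 0.15). Igf2bp3, an RNA-binding protein, read 550, 524 and 1353 against 378, 269 and 340 (-1.17 ± 0.29, adjusted p = 0.18), and Scara3, a scavenger receptor, 926, 1086 and 1904 against 693, 502 and 516 (-1.14 ± 0.27, adjusted p = 0.18). Untreated replicate 2 was the highest array of both, and without it the difference of Igf2bp3 was -0.72. With its 6 probe sets averaged, Igf2bp3 differed by -0.56. Fntb, the farnesyltransferase beta subunit, ranged from 250 to 882 untreated and from 143 to 200 at 24 h (-1.47 ± 0.50, adjusted p = 0.38). The largest differences past the threshold between 4 h and 24 h included genes whose mean at 4 h lay below background. Fbln7, a fibulin, read 56, 3.53 and 96.2 at 4 h and 179, 266 and 272 at 24 h, where its mean was 3.37 times the background. Adh1, alcohol dehydrogenase, read 57.7, 45.7 and 30.6 against 186, 207 and 219, at least 2.91-fold higher. Ccn3, a matricellular protein, rose from 466, 507 and 817 to 1749, 2857 and 3774 (2.20 ± 0.43). Against untreated cells, Fbln7, Adh1 and Ccn3 differed at 24 h by 0.28 ± 0.73, -0.33 ± 0.39 and 0.12 ± 0.43, and Adh1 and Ccn3 by 0.03 and -0.24 without untreated replicate 2. On the lower side, Ticrr, which helps load the replication helicase, read 274, 272 and 177 at 4 h and 93.2, 86.9 and 72.6 at 24 h (-1.50 ± 0.25, adjusted p = 0.0057). The 24 h arrays were below its untreated arrays of 136, 153 and 243 (-1.03 ± 0.25, adjusted p = 0.18). With its 3 probe sets averaged, Ticrr differed from untreated by -0.45.

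Whether these differences at 24 h were particular to the wild-type line was tested as a difference of responses. No member differed in its 24 h response between the wild type and the knockout, or between the wild type and line R, at an adjusted p below 0.05 (0.0% in both). An unadjusted p below 0.05 was reached by 172 members (1.63%) and 258 (2.45%). Within the knockout and line R, no member passed at 24 h either (553 and 445 with an unadjusted p below 0.05, 5.24% and 4.22%). Ebf3 differed by -1.10 in the wild type, 0.22 ± 0.16 in the knockout and 0.24 ± 0.16 in line R. The tests of the difference of responses gave -1.33 ± 0.23 (adjusted p = 0.14) and -1.34 ± 0.23 (0.12). Without knockout 24 h replicate 1, Ebf3 passed in both (-1.56, adjusted p = 0.0034, and -1.34, 0.0086). Macir differed by 1.08, 0.64 ± 0.17 and -0.22 ± 0.17, and against line R the difference of responses was 1.30 ± 0.24 (adjusted p = 0.15; 0.041 without wild-type 4 h replicate 1). Cgas differed by -1.36, -0.02 ± 0.24 and -0.27 ± 0.24, with differences of responses of -1.34 ± 0.33 (adjusted p = 0.69) and -1.09 ± 0.33 (0.99). For Elovl6 the values were -0.86, -0.35 ± 0.13 and -0.46 ± 0.13, and for Zfp367 0.86, 0.33 ± 0.14 and 0.22 ± 0.14, each on 1 side in all 3 lines. Their differences of responses were -0.51 ± 0.18 and -0.39 ± 0.18 for Elovl6, and 0.53 ± 0.19 and 0.63 ± 0.19 for Zfp367. None of these passed. A p that misses the threshold with 3 arrays a group does not show that the lines responded alike. In cholesterol synthesis the medians at 24 h were -0.41, -0.12 and -0.31 in the same order, and for p53 arrest and feedback 0.40, 0.06 and 0.12. Other lists had a larger median in the knockout and line R than in the wild type. For immediate early genes the medians were 0.17 (0.30 without untreated replicate 2), 0.66 and 0.50. For the ERK feedback inhibitors they were 0.13 (-0.01 without that array), 0.53 and 0.45. Differences of list medians between lines were not tested.

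**Figure D5:**
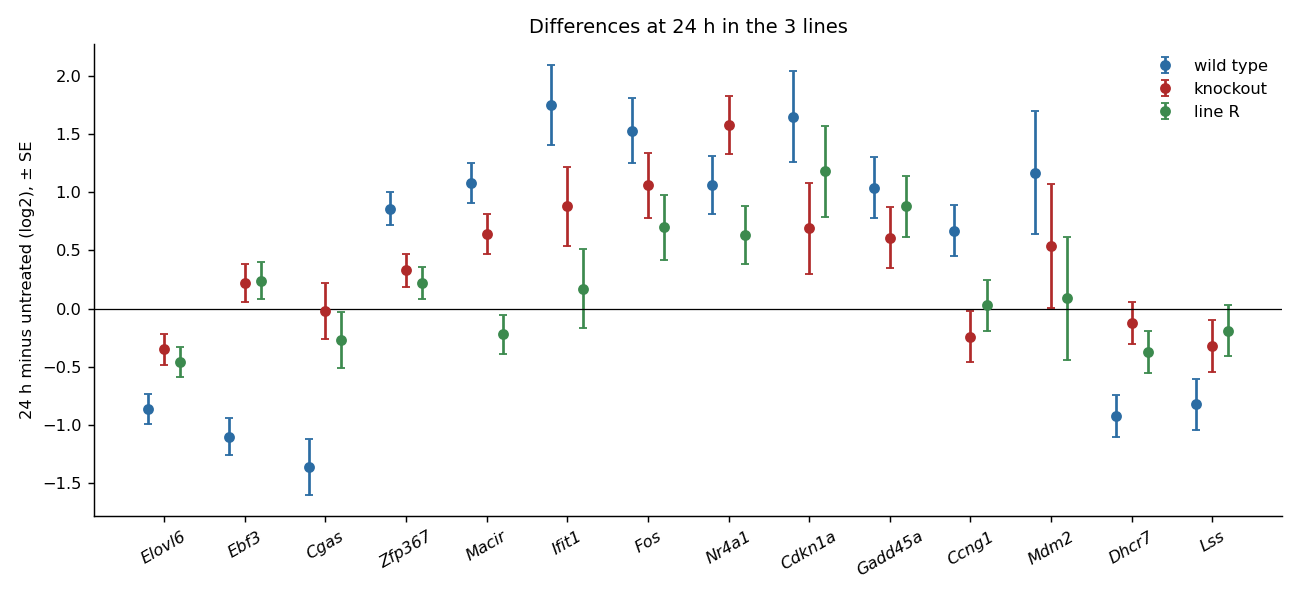
Difference between 24 h and untreated cells (log2, points) with its standard error (bars, from the model over 9 groups, 3 arrays per group) for 14 genes in the wild-type, knockout and R lines. Ebf3, Cgas, Macir, Zfp367 and Ifit1 are among the genes whose bars do not overlap between the wild type and line R. None of the differences of responses passed after adjustment.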

How the data were processed

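Affymetrix arrays measured RNA in 27 samples. The table deposited by the authors gives a linear intensity for each of 45101 probe sets. Leaving off the lowest and highest 2% of values, every array had a mean of 500.003, the mark of a common scaling. RMA and GCRMA are named, with no version, per the submitters' processing notes; they give log2 values that this scale does not match, so the summary method is not known. Intensities were taken to log2 with no offset or further normalization. The brightest probe set stood for each of 18193 genes with a probe set of 1 symbol; other probe sets were not used for calls. Levels of a group are geometric means. Differences (± SE) were fitted with limma 3.58.1 in R 4.3.3 on all 27 arrays with 9 group means (18 residual degrees of freedom), with two-sided Benjamini-Hochberg adjusted p values over 18193 genes and a threshold of 0.05, after a test on simulated data. Exact permutation of 3 against 3 arrays cannot go below 0.1 and was not run.

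Samples were grouped by title. Genes above background and 38 gene lists, described by counts and medians and not tested, were chosen with earlier results of these data known. Named were Akt1, Akt2, Cdkn1a, Mdm2 and Ccng1, all called genes, up to 6 members per list by p, up to 10 genes in each direction by difference among those with separate arrays and an unadjusted p below 0.01, and up to 8 by difference in each direction of the other comparisons; the text uses part of these. Further list members called between 4 h and 24 h were named after their values were seen. The alternatives were a replicate block, an intensity trend, a filter on low genes, quantile normalization, equal array medians, other uses of probe sets, an offset of 50, a fit on compared arrays only, and leaving out arrays. The background level and the counts without untreated replicate 2 were varied after the data had been seen.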

Additional observations from a re-analysis of the deposited data

Results flagged for a closer look

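D630004K10Rik was the 1 gene of 18193 whose 24 h response differed between lines in limma's test of the difference itself, and it is no member, since it lay below background in every group. The difference of responses (log2) was 3.05 ± 0.41 for the wild type minus the knockout (adjusted p = 0.0083) and 3.05 ± 0.41 for the wild type minus line R (adjusted p = 0.0086). It read 2.63 untreated and 16.5 at 24 h in the wild type, 38.1 and 28.8 in the knockout, and 49.3 and 37.4 in line R. With an intensity trend in the prior variance the adjusted p was 0.60 and 0.68, and without the 5 arrays that stood apart 0.065 and 0.017.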

How the results depend on the processing

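The count of 5 genes changed between 24 h and untreated was small enough to move with most settings, and the cause of each shift was not tested. It was 13 with an intensity trend in limma's prior variance, 14 when only genes above background were tested, 18 after an offset of 50 was added to every intensity, 3 with array medians made equal, 3 with each probe set tested by itself and 3 without the 5 arrays that stand apart. It was 0 with limma when the 2 groups were fitted alone (443 genes at an unadjusted p below 0.05) and 0 when all probe sets of a gene were averaged (902 genes at an unadjusted p below 0.05). Leaving out 1 array gave 1 to 11 genes, with 1 without the 24 h array of replicate 1 and 11 without that of replicate 0. Zfp367 was called in 5 of 10 alternatives, Cgas and Macir in 6 each, and Elovl6 and Ebf3 in 7 each.

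The 436 genes that differed between 24 h and 4 h became 848 when only those 10225 genes were tested. The count was 812 with the offset (421 higher and 391 lower) and 173 with probe sets averaged. It was 0 with the compared arrays alone (1840 genes at an unadjusted p below 0.05 in limma). Leaving out 1 array gave 92 to 553 genes, the lowest without the 24 h array of replicate 1. For the response differences, quantile scaling gave 1 gene against the knockout, Ebf3 (difference -1.34, adjusted p = 0.042 in limma), and omission of the 5 arrays gave 1 gene against line R, Pogk. Omission of 1 of the 12 arrays that a response difference compares gave 0 to 1 genes against the knockout (Galnt12 without knockout untreated replicate 1, Ebf3 without knockout 24 h replicate 1) and 0 to 0 against line R. Omission of an array of another group, which alters only the pooled spread, gave 1 gene against line R in 2 of 21 omissions run, Ebf3 without knockout 24 h replicate 1 and Macir without wild-type 4 h replicate 1. Averaging probe sets changed the sign of the 24 h difference for Akt1 (to 0.12), Chst2 (to 0.29) and further genes examined. Among these were Kif23 (from -0.42 to 0.13), Rad50 (-0.35 to 0.22), Cdt1 (0.25 to -0.47) and Spry2 (0.38 to -0.52). Other differences shrank or grew, as for Mcl1 (0.57 to 0.20) and Elovl6 (-0.86 to -1.43). Without the untreated array of replicate 2, 2858 genes did not overlap between the 2 groups. The number of arrays limits the precision.

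Whether replicate numbers pair the arrays was not settled. Over 108 same-numbered pairs the deviations correlated between -0.72 and 0.78 (median 0.03). For 14 of 27 arrays, the mean correlation with arrays of other groups was highest for those of their own number. With the replicate number as a block, limma called 5 genes at 24 h against untreated, 450 at 24 h against 4 h, and 0 in each response difference.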

Other observations

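Besides D630004K10Rik, 3 genes passed between 24 h and untreated wild-type cells with both group means below background, and no fold is given for them. Olfm1, olfactomedin 1, read 24.7, 33.8 and 26.9 untreated and 3.39, 2.77 and 3.66 at 24 h (adjusted p = 0.031). Cpa6, a carboxypeptidase, read 36.2, 51.5 and 50.8 against 4.36, 5.43 and 28.0 (adjusted p = 0.033). Cass4, of the Cas scaffold family, read 1.15, 0.946 and 1.93 against 36.4, 17.5 and 11.1 (adjusted p = 0.023). In D630004K10Rik the untreated arrays read 2.98, 2.73 and 2.24 and the arrays at 24 h 21.7, 15.2 and 13.6 (adjusted p = 0.00037).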
